A study of Mus musculus with 80 samples.

Results

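Insig1, Insig2, Srebf1, Srebf2, Hmgcs1, Idi1, Fdps and Sqle are the 8 genes described here, 4 of the sterol-sensing machinery and 4 enzymes of sterol synthesis. They were chosen by gene symbol, and every probe of the array that carries 1 of these symbols was taken, which gave 15 probes of the 25697 on the array and 8 genes of the 16593 named there. Insig1 has 4 probes, Insig2 has 3, Srebf1 and Sqle have 2 each, and Srebf2, Hmgcs1, Idi1 and Fdps have 1 each.

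The arrays were run on liver, kidney cortex, kidney medulla, lungs and spleen of female BALB/c nude mice, a strain that lacks T cells, after intravenous injection of 211At, an astatine isotope that emits α-particles. The exposed groups received 1.7 kBq, with 3 mice killed at each of 1 h, 6 h and 7 days, 105 kBq, with 2 mice killed at 1 h, or 7.5 kBq, with 2 mice killed at 6 h. The control mice had a mock injection and were killed after 24 h (n = 3). Each tissue therefore has 16 arrays, and the series has 80. No control group was killed at the time of an exposed group, so time after injection and exposure cannot be told apart in a comparison with control, and all 5 comparisons of a tissue use the same 3 control arrays. The labels do not say which tissues came from the same mouse.

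Animal cells make cholesterol from acetyl-CoA through the mevalonate pathway. The transcription factors SREBP-1 and SREBP-2, encoded by Srebf1 and Srebf2, are held in the endoplasmic reticulum by the escort protein SCAP and the Insig proteins while sterols are plentiful, and are released to the nucleus and switch on the enzyme genes when sterols run low. Insig1 is itself a target of the SREBPs, which closes a feedback loop, whereas Insig2 is not driven by them in the same way and in mouse liver has an alternative transcript, Insig2a, that is lowered by insulin. The liver is a main site of this synthesis.

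On mouse build GRCm38.p6, Insig1 lies on chromosome 5 (chr5:28071412-28078662), Insig2 on chromosome 1 (chr1:121304353-121332662), Hmgcs1 and Idi1 on chromosome 13 (chr13:119690351-119708260 and chr13:8885606-8892396), Fdps on chromosome 3 (chr3:89093588-89101967), Srebf2 and Sqle on chromosome 15 (chr15:82147269-82205379 and chr15:59315092-59331193) and Srebf1 on chromosome 11 (chr11:60199084-60224186). RefSeq promoter windows of 300 bases, 250 before and 50 after a transcript start, were at hand for 6 of the 8 genes, in 10 windows because Insig2 and Srebf1 have 3 starts each. They are printed for Insig1, for the most downstream and the most upstream start of Insig2, and for Hmgcs1, the 3 genes with the largest liver differences from control. Capitals mark matches, on either strand, to a sterol response element (TCACNCCAC), the NF-Y box (CCAAT), the Sp1 box (GGGCGG) and the E-box (CACGTG). No match overlapped another.
Insig1, chr5:28071162-28071461, plus strand: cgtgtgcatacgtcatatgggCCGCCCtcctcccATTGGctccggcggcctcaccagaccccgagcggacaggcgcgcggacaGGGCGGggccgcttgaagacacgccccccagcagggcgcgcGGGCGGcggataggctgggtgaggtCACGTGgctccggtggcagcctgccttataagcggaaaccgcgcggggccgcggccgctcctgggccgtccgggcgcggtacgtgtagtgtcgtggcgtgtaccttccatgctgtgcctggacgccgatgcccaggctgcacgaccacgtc
Insig2, most downstream start, chr1:121327629-121327928, minus strand: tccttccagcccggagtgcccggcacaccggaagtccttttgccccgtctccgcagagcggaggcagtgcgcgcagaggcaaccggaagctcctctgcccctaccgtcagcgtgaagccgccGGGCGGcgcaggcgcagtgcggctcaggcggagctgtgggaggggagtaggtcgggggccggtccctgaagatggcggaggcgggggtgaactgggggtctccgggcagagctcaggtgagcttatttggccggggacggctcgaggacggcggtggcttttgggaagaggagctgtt
Insig2, most upstream start, chr1:121332540-121332839, minus strand: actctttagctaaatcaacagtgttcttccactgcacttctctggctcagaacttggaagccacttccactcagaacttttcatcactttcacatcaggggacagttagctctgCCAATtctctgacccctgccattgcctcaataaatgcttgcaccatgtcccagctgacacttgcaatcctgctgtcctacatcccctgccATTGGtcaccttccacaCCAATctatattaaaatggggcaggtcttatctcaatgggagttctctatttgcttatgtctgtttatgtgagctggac
Hmgcs1, chr13:119690101-119690400, plus strand: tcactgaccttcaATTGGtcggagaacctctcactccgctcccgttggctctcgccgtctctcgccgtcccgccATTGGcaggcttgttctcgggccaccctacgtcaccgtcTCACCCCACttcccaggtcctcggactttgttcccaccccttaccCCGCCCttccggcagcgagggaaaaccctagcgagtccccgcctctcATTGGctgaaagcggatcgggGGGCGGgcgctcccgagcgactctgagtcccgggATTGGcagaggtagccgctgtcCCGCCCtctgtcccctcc

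The sterol response element had 1 match among the 10 windows, in Hmgcs1, and was found in 1.24% of all 32851 windows of this length. The CCAAT box, known as a partner of SREBP sites, was found in 7 of the 10 windows against 37.4% of all windows, with 4 matches in Hmgcs1 and 3 in the upstream Insig2 window. The Sp1 box was found in 8 of the 10 windows against 35.7% of all windows, and the E-box in 1, that of Insig1, against 7.15%. A match is a string of letters and not a measured binding site, and a window without one says only that these letters are not there.

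Signals are given as log2 of the deposited intensity, which carries no subtraction of background, so a level near the background signal of 6.86 (log2) holds little information and folds of dim probes are understated. A probe was kept in a tissue when at least 2 of its 16 arrays lay above that background. In the liver 14 of the 15 member probes were kept and in each other tissue 13. The probe left out everywhere was Srebf1 ILMN_2696876, which passed background on 1 of 16 liver arrays, and Insig2 ILMN_1234858 was kept in the liver alone. A probe was called regulated at an adjusted p under 0.01 (limma, Benjamini-Hochberg over all kept probes) and a fold change of 1.5 or more in either direction (0.58 on the log2 scale).

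Of the 80 arrays, 5 carried transcripts of another tissue, since the median of that tissue's marker list lay at least 4-fold above the tissue's median array. They were the kidney cortex array of 7.5 kBq at 6 h, replicate 1, with hepatocyte transcripts at 41.6-fold, the kidney medulla array of 7 days, replicate 1, with hepatocyte transcripts at 126.2-fold, the kidney cortex array of 1.7 kBq at 6 h, replicate 1, with adrenal cortex transcripts at 6.61-fold, the spleen array of 7 days, replicate 1, with pancreas transcripts at 78.0-fold, and the lung array of 7.5 kBq at 6 h, replicate 1, with kidney medulla transcripts at 18.8-fold. None of them is a liver array or a control array. The library labelled kidney medulla, 7 days, replicate 1 goes against its label, because its median was 6.70 for the proximal tubule list and 6.82 for the kidney medulla list, at or below background, where the other 15 medulla arrays lay at 10.10 or more and 9.84 or more. Its hepatocyte median, 13.82, lay within the range of liver arrays. The other 4 arrays kept their own tissue's markers near the level of their fellows. Values of the medulla are therefore given with and without that library. All 7 hepatocyte markers were measured in the liver, and the median of the list lay between 13.19 and 13.43 on the arrays of 105 kBq and between 13.41 and 13.46 on those of 7.5 kBq, against 13.75 to 14.05 on the control arrays, while the 1.7 kBq groups lay between 13.45 and 14.06. The 4 measured adipocyte markers reached a median of 7.68 at 105 kBq and 7.66 at 1.7 kBq and 6 h, against 6.71 to 6.77 on control arrays. The part of these markers in the liver results below was not tested, and in bulk tissue fewer cells of a type and less RNA per cell cannot be told apart.

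Among unexposed tissues, the liver had the highest level of Insig1, Insig2, Srebf1, Hmgcs1, Idi1, Fdps and Sqle on every probe measured, and Srebf2 was the exception. Over the 15 control arrays, 11 of 14 member probes were called between liver and kidney cortex, 10 between liver and kidney medulla, 12 between liver and lungs and 13 between liver and spleen, against 17.4%, 18.4%, 26.4% and 28.1% of all 21143 probes tested in those comparisons. Each of those member calls was higher in the liver. Every one of these counts includes Insig2 ILMN_1234858, which passed the background filter in the liver alone. The filter set the direction of its call, so it adds nothing to them. With 1 control array left out, the counts were 9 to 11 for liver against cortex and 10 to 11 for liver against medulla. The shares called higher in the liver over all probes were 7.56%, 8.08%, 11.7% and 12.0%.

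The widest gaps between liver and the other tissues were on Insig2 probes. The Insig2 probe ILMN_1216822 averaged 12.04 ± 0.18 in liver, 9.0 in kidney medulla, 8.71 in kidney cortex, 8.40 in spleen and 8.36 in lungs (log2, SD, n = 3 each), and the liver lay 3.33 above the cortex (SE 0.12, 10.03-fold, adjusted p = 4.71e-11). A second probe, ILMN_1234858, averaged 10.82 ± 0.21 in liver and was below background on all 3 control arrays of each other tissue, where the means were 6.66 to 6.69, so the liver was at least 15.5-fold higher when those tissues are set at the background signal. Whether this probe reads a particular Insig2 transcript is not known from the files. The third Insig2 probe, ILMN_2690256, differed between liver and lungs by 2.55 and between liver and spleen by 3.19.

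Insig1 ILMN_2895388 averaged 10.95 ± 0.21 in liver, 9.84 ± 0.56 in kidney cortex and 9.62 ± 0.49 in lungs, and Insig1 ILMN_2606693 averaged 9.77 ± 0.51 in liver and 7.74 in kidney cortex. The liver lay above the lungs by 1.33 on ILMN_2895388 and by 2.69 on ILMN_2606693, so which of Insig1 and Insig2 had the wider gap depended on the probe. In the order of tissues, Insig1 showed no call between kidney cortex, kidney medulla and lungs on any probe. Fdps, which makes farnesyl diphosphate, averaged 11.74 ± 0.11 in liver against 9.67 in lungs, 9.61 in kidney cortex, 9.51 in spleen and 9.01 in kidney medulla. Idi1, the isomerase that feeds Fdps, averaged 9.62 ± 0.29 in liver against 8.06 in lungs and 7.58 in kidney medulla.

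Hmgcs1, the HMG-CoA synthase of the mevalonate pathway, was bright in all 5 tissues, at 13.42 ± 0.13 in liver, 12.87 in kidney medulla, 12.84 in kidney cortex, 12.22 in lungs and 11.12 in spleen. The liver was called above lungs (by 1.20) and spleen (by 2.30), whereas the differences from cortex (0.58, adjusted p = 0.0184) and medulla (0.55, adjusted p = 0.0239) missed the threshold. Sqle, the squalene epoxidase, averaged 10.26 in liver on ILMN_2737163, within 0.56 of cortex, medulla and lungs and called above the spleen alone (1.23, adjusted p = 0.000416). On Sqle ILMN_2600348 the liver was also called above kidney cortex (0.68, adjusted p = 0.00586) and lungs (1.05, adjusted p = 0.00014), beside spleen (1.12, adjusted p = 7.55e-05). Srebf2 had its highest control mean in spleen (8.68 ± 0.34), above lungs (8.51), liver (8.44), kidney cortex (8.09) and kidney medulla (8.04). No Srebf2 difference between the liver and another tissue was called, and the calls were cortex against spleen (-0.60, adjusted p = 0.00947) and medulla against spleen (-0.64, adjusted p = 0.00589). Both Srebf2 calls were lost with array weights, with a replicate block, without spleen replicate 1 and without any 1 of the 3 control arrays of the kidney part, and the cortex call also with no probe filter. Between the 4 tissues other than the liver the calls of member probes numbered 0 for cortex against medulla and 0 for cortex against lungs, 5 for cortex against spleen, 2 for medulla against lungs, 4 for medulla against spleen and 2 for lungs against spleen, against 1.72%, 21.6%, 26.8%, 21.7%, 27.1% and 19.1% of all probes. Leaving out 1 control array moved these counts to 2 or 3 for cortex against spleen, whichever array it was. It gave 0 for medulla against lungs and 2 for medulla against spleen without medulla replicate 2. In the plot of control levels by tissue the liver points stand clear of every other tissue for each plotted probe except those of Sqle and Srebf2. The margin was narrow for Insig1 ILMN_2895388 (lowest liver array 10.71, highest cortex array 10.49) and Hmgcs1 (13.27, and 13.03 in the medulla).

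**Figure D1:**
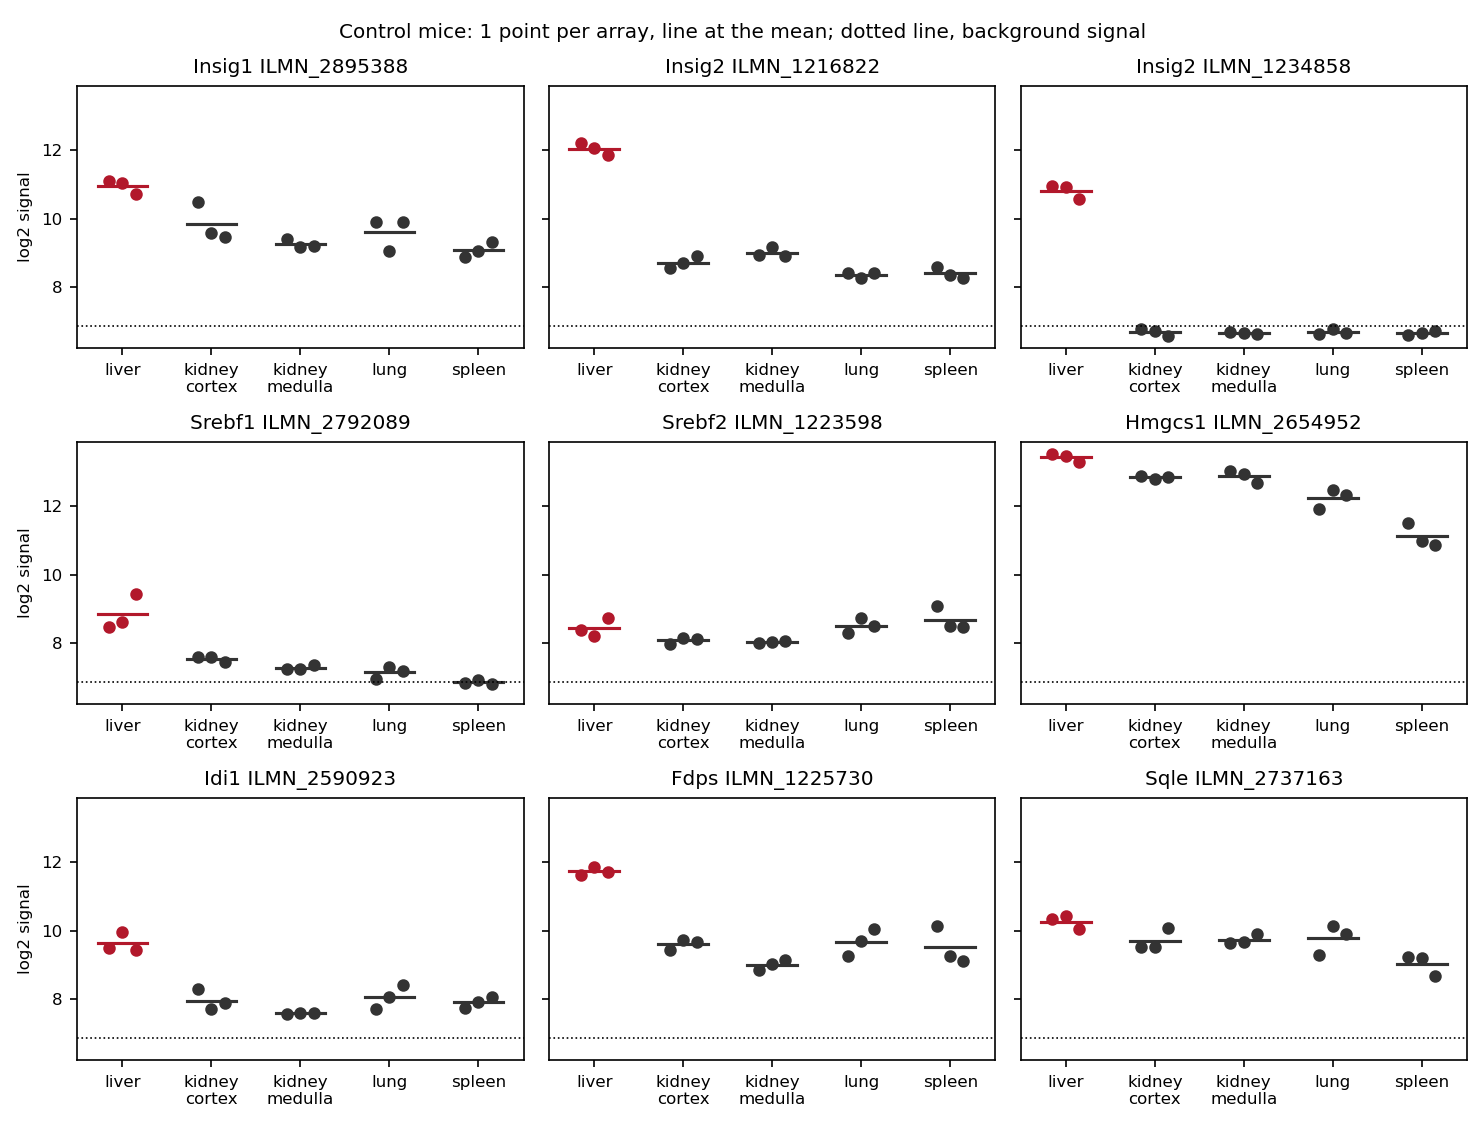
Log2 signal of 9 member probes on the 15 control arrays, 1 panel per probe, with tissues on the x axis, 1 point per array, a line at the mean of 3 arrays and a dotted line at the background signal of 6.86. The liver points lie above all others for each probe except those of Sqle and Srebf2, narrowly for Insig1 and Hmgcs1. Srebf2 shows no step between liver and the other tissues.

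After 211At no member probe met the rule for a call in any of the 25 comparisons of an exposed group with control. Over these, 330 tests of member probes were made by limma, with 0 calls, 8 at an adjusted p under 0.05 and 77 at an unadjusted p under 0.05. The liver held 6 of the 8, and the kidney cortex held the other 2. In the liver they were 0, 0, 3, 3 and 0 over 1.7 kBq and 1 h, 105 kBq and 1 h, 1.7 kBq and 6 h, 7.5 kBq and 6 h, and 7 days, where 4.82%, 4.11%, 2.01%, 4.12% and 0.0970% of all kept probes had such a value. The share of all kept liver probes called was 1.19% at 1.7 kBq and 1 h, 0.997% at 105 kBq and 1 h, 0.587% at 1.7 kBq and 6 h, 1.15% at 7.5 kBq and 6 h, and 0.0377% at 7 days. The values below are therefore differences that did not pass the test, and are given with their errors.

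In the liver, most member probes lay below control at 6 h and 7 days. At 1.7 kBq and 1 h, 1 of the 14 probes had every exposed array below the lowest control array and 2 had every one above the highest, against 9.87% and 11.5% of all kept probes. At 105 kBq and 1 h these counts were 7 below and 3 above, against 15.2% and 17.5%. At 6 h, 5 lay below after 1.7 kBq, against 6.90%, and 8 after 7.5 kBq, against 16.7%. At 7 days 6 lay below, against 6.51%. At an unadjusted p under 0.05, the member probes numbered 5, 8, 7, 9 and 5 of 14 over the same 5 groups, where 17.8%, 17.3%, 12.2%, 17.5% and 8.92% of all kept probes passed. Probes of 1 gene are not independent of each other, and the 5 groups share their control arrays.

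Insig1, the SREBP-induced member of the feedback pair, had a liver mean below control in every exposed group on all 4 probes. On ILMN_2606693 the log2 signals were 8.65, 9.03 and 9.22 at 1.7 kBq and 1 h, 8.93 and 8.91 at 105 kBq and 1 h, 8.78, 9.25 and 8.29 at 1.7 kBq and 6 h, 8.67 and 8.39 at 7.5 kBq and 6 h, and 9.36, 8.77 and 8.77 at 7 days, against 9.32, 9.66 and 10.32 in control livers. All exposed arrays but 1, at 7 days, lay below the lowest control array, and the control arrays spread over a full log2 unit. The difference from control was -0.80 (SE 0.26, adjusted p = 0.0941) at 1.7 kBq and 1 h, -0.84 (SE 0.29, adjusted p = 0.121) at 105 kBq, -0.99 (SE 0.26, adjusted p = 0.0638) at 1.7 kBq and 6 h, -1.24 (SE 0.29, adjusted p = 0.0246) at 7.5 kBq and 6 h, and -0.80 (adjusted p = 0.357) at 7 days.

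ILMN_1245272 ran with it (r = 0.98 over the 16 liver arrays), at 8.51 and 8.27 after 7.5 kBq against 9.01, 9.42 and 10.16 in control livers, a difference of -1.14 (SE 0.27, adjusted p = 0.0269). The other 4 groups differed from control on this probe by -0.65, -0.65, -0.85 and -0.81, with adjusted p of 0.153, 0.214, 0.095 and 0.313. ILMN_2620965 was dim, and both 7.5 kBq arrays (6.82 and 6.84) lay below background against 7.48, 7.63 and 7.95 in control livers.

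The fourth probe, ILMN_2895388, had the highest mean signal of the gene and followed the other 3 loosely (r = 0.38 to 0.54). Its signals were 10.74, 10.88 and 11.00 at 1.7 kBq and 1 h, 10.50 and 10.45 at 105 kBq, 11.32, 10.91 and 10.39 at 1.7 kBq and 6 h, 10.35 and 10.25 at 7.5 kBq, and 10.63, 10.48 and 10.67 at 7 days, against 11.11, 11.03 and 10.71 in control livers. The arrays of 105 kBq, 7.5 kBq and 7 days all lay below the control arrays, while those of 1.7 kBq at 1 h and 6 h overlapped them. The differences were -0.07 (SE 0.17) at 1.7 kBq and 1 h, -0.48 (SE 0.19, adjusted p = 0.199) at 105 kBq, -0.07 at 1.7 kBq and 6 h, -0.65 (SE 0.19, adjusted p = 0.0736) at 7.5 kBq, and -0.36 (SE 0.17, adjusted p = 0.576) at 7 days. The Insig1 probes thus gave unlike values at 1.7 kBq, ranging from -0.80 to -0.07 at 1 h and from -0.99 to -0.07 at 6 h, and the same sign in every group. On ILMN_1245272 and ILMN_2606693 the same control array, at 10.16 and 10.32, was the highest of the 16.

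**Figure D2:**
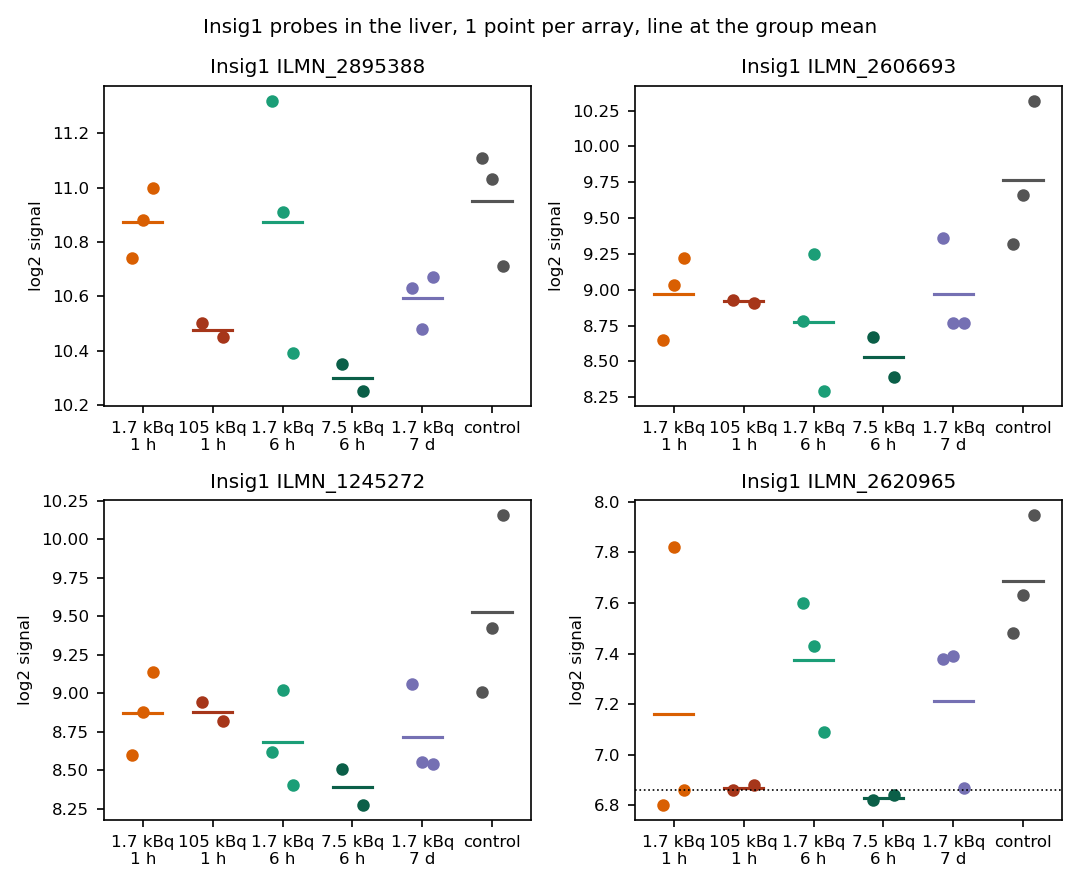
Log2 signal of the 4 Insig1 probes on 16 liver arrays, 1 panel per probe, with exposed groups on the x axis and control at the right, 1 point per array and a line at each group mean. Exposed points of ILMN_2606693 lie below the control points except 1, at 7 days. On ILMN_1245272 the lowest control array reads 9.01. Single arrays at 1.7 kBq and 1 h (9.14), at 1.7 kBq and 6 h (9.02) and at 7 days (9.06) lie above it. Points of ILMN_2895388 at 1.7 kBq overlap the control points at 1 h and 6 h.

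Insig2, the partner not driven by the SREBPs in the same way, differed from control most at 1.7 kBq and 6 h, where all 3 of its probes had an adjusted p under 0.05 (2.01% of all kept liver probes had). On ILMN_1216822 the signals were 12.49, 11.75 and 11.67 at 1.7 kBq and 1 h, 11.52 and 12.17 at 105 kBq, 11.34, 10.85 and 11.23 at 1.7 kBq and 6 h, 12.04 and 11.78 at 7.5 kBq, and 12.01, 12.19 and 11.75 at 7 days, against 12.20, 12.07 and 11.84 in control livers. The 3 arrays of 1.7 kBq at 6 h were the lowest of the 16, and every other group overlapped the controls. The difference at 1.7 kBq and 6 h was -0.90 (SE 0.21, adjusted p = 0.0416) on this probe, -1.52 (SE 0.34, adjusted p = 0.0338) on ILMN_1234858 and -0.85 (SE 0.20, adjusted p = 0.0365) on ILMN_2690256.

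The 3 probes ran together over the liver arrays (r = 0.91 to 0.98). ILMN_1234858 stood at 9.02, 9.28 and 9.59 after 1.7 kBq at 6 h against 10.96, 10.91 and 10.57 in control livers, and 1 array of 105 kBq, at 9.37, lay within that low range while its fellow read 10.93. In the other 4 exposed groups the differences of the 3 probes from control ran between -0.67 and 0.02, with adjusted p of at least 0.415.

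Comparisons that leave out the control group used the same 3 low arrays of 1.7 kBq at 6 h, so they are not separate evidence. At 6 h, Insig2 was higher after 7.5 kBq than after 1.7 kBq by 0.77, 1.11 and 0.81 on the 3 probes, with an adjusted p of 0.677 for each (unadjusted 95% intervals 0.26 to 1.28, 0.29 to 1.93 and 0.34 to 1.28). After 1.7 kBq, Insig2 at 7 days was above its level at 6 h by 0.84 (adjusted p = 0.111), 1.33 (adjusted p = 0.12) and 0.88 (adjusted p = 0.0698). Over all kept liver probes 0.00% were called between the activities at 6 h and 0.140% between 7 days and 6 h. No Insig2 probe was called in either.

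**Figure D3:**
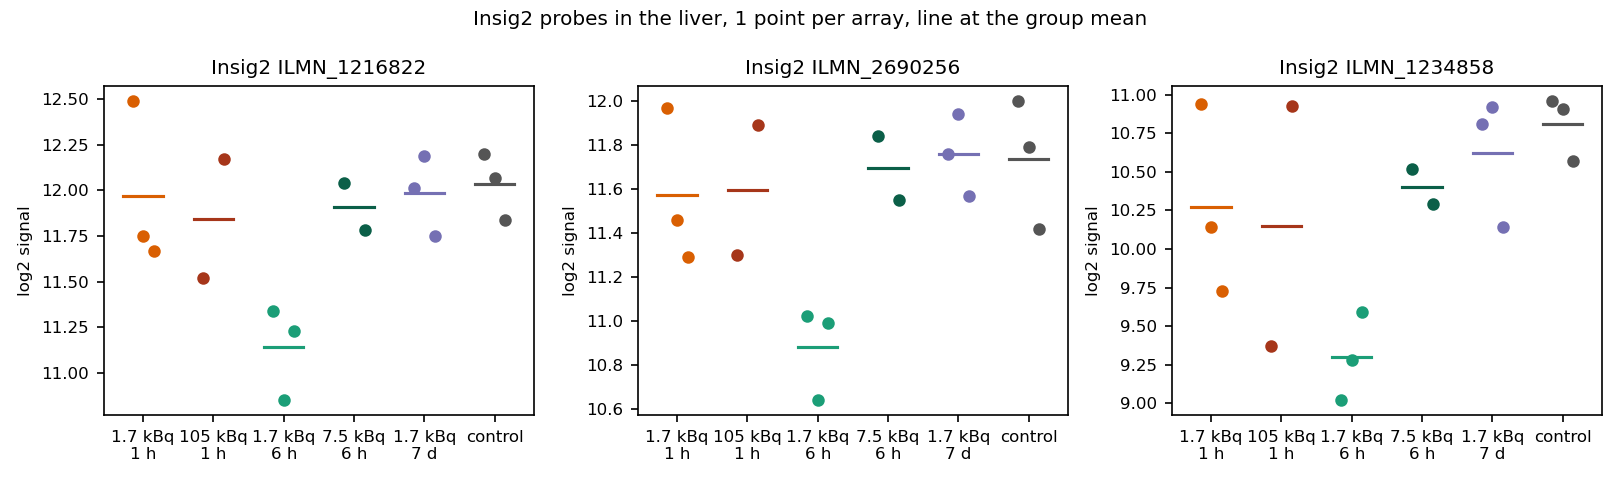
Log2 signal of the 3 Insig2 probes on 16 liver arrays, with exposed groups on the x axis and control at the right, 1 point per array and a line at each group mean. The 3 arrays of 1.7 kBq at 6 h form the lowest group on each probe, at 10.85 to 11.34 on ILMN_1216822 against 11.84 to 12.20 in control livers.

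Hmgcs1 came nearest to a call. Its liver signals were 12.77, 12.83 and 13.92 at 1.7 kBq and 1 h, 13.05 and 12.72 at 105 kBq, 12.97, 12.72 and 12.62 at 1.7 kBq and 6 h, 12.34 and 11.72 at 7.5 kBq, and 13.24, 12.72 and 13.07 at 7 days, against 13.52, 13.47 and 13.27 in control livers. All arrays but 1, at 1.7 kBq and 1 h, lay below the control arrays, and the 2 arrays of 7.5 kBq were the lowest of the 16. At 7.5 kBq the difference was -1.39 (SE 0.28, adjusted p = 0.0108), just outside the threshold of 0.01, and 4.12% of all kept liver probes had an adjusted p under 0.05 there. It was called with a stricter probe filter, with array weights or with the 2 groups fitted alone. The other 4 groups differed by -0.25, -0.54, -0.65 and -0.41, with adjusted p of at least 0.263. Between activities at 6 h, 7.5 kBq lay below 1.7 kBq by 0.74 (log2, SE 0.28, adjusted p = 0.707).

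Idi1, the isopentenyl diphosphate isomerase, read 8.58 and 8.72 at 7.5 kBq and 8.74, 8.99 and 8.87 at 7 days, against 9.50, 9.96 and 9.42 in control livers. These 5 exposed arrays all lay below the control arrays, with differences of -0.97 (SE 0.33, adjusted p = 0.114) at 7.5 kBq and -0.76 (SE 0.29, adjusted p = 0.458) at 7 days. At 1.7 kBq and 1 h the difference was 0.01.

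Fdps and Sqle, which act further down the pathway, had another order over time. Fdps read 11.92, 11.85 and 12.40 at 1.7 kBq and 1 h, 12.19 and 12.27 at 105 kBq, 11.94, 11.29 and 11.00 at 1.7 kBq and 6 h, 11.23 and 10.94 at 7.5 kBq, and 11.28, 10.88 and 11.26 at 7 days, against 11.63, 11.86 and 11.72 in control livers. Both arrays of 105 kBq were above every control array, and those of 7.5 kBq and 7 days were all below. The differences from control were 0.32 (SE 0.20) and 0.49 (SE 0.22) at 1 h and -0.65 (SE 0.22) and -0.60 (SE 0.20) at 7.5 kBq and 7 days, with adjusted p of 0.123 to 0.447.

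Sqle ILMN_2737163 read 11.16, 10.77 and 11.14 at 1.7 kBq and 1 h, 10.85 and 10.94 at 105 kBq, 10.61, 9.95 and 9.94 at 1.7 kBq and 6 h, 10.13 and 9.11 at 7.5 kBq, and 9.76, 9.22 and 10.16 at 7 days, against 10.33, 10.42 and 10.04 in control livers. The 5 arrays of 1 h were the highest of the 16. Both 1 h groups were above control and differed on this probe by 0.76 at 1.7 kBq (SE 0.26, adjusted p = 0.116) and 0.63 at 105 kBq (SE 0.29, adjusted p = 0.272). On ILMN_2600348 they differed by 0.58 at 1.7 kBq (SE 0.17, adjusted p = 0.0663) and 0.51 at 105 kBq (SE 0.19, adjusted p = 0.163).

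Without the control group, the difference of 7 days minus 1 h after 1.7 kBq was -1.31 on Sqle ILMN_2737163 (SE 0.26, adjusted p = 0.0159), -0.88 on Sqle ILMN_2600348 (SE 0.17, adjusted p = 0.0145) and -0.92 on Fdps (SE 0.20, adjusted p = 0.0228). All 3 had an adjusted p under 0.05, as did 2.64% of the kept liver probes, and none met the threshold of 0.01, which 0.431% of the kept probes met together with the fold. No arrays of the 2 groups overlapped on these 3 probes. They were picked by their adjusted p, and the share of all kept probes without overlap is not given here, so this is not separate evidence. At 6 h against 1 h after 1.7 kBq, the Sqle probes differed by -0.65 and -0.86 and Fdps by -0.65, with adjusted p of 0.316 to 0.377, and 0.00539% of kept probes were called. These were the only 3 member probes at an adjusted p under 0.05 in the 25 comparisons between times or activities over the 5 tissues, in which limma called 0 of 330 tests and 52 had an unadjusted p under 0.05. The order below is 105 against 1.7 kBq, 7.5 against 1.7 kBq, 6 h against 1 h, 7 days against 1 h, 7 days against 6 h. At that unadjusted level the liver held 0, 6, 6, 5 and 3 of 14 (all kept probes: 9.58%, 6.74%, 8.63%, 16.1% and 10.2%). The kidney cortex held 3, 3, 5, 3 and 2 of 13 (all kept probes: 8.58%, 6.41%, 15.3%, 10.9% and 18.5%). Between 105 and 1.7 kBq at 1 h the liver differences of Insig2, Fdps and Sqle lay between -0.13 and 0.17.

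**Figure D4:**
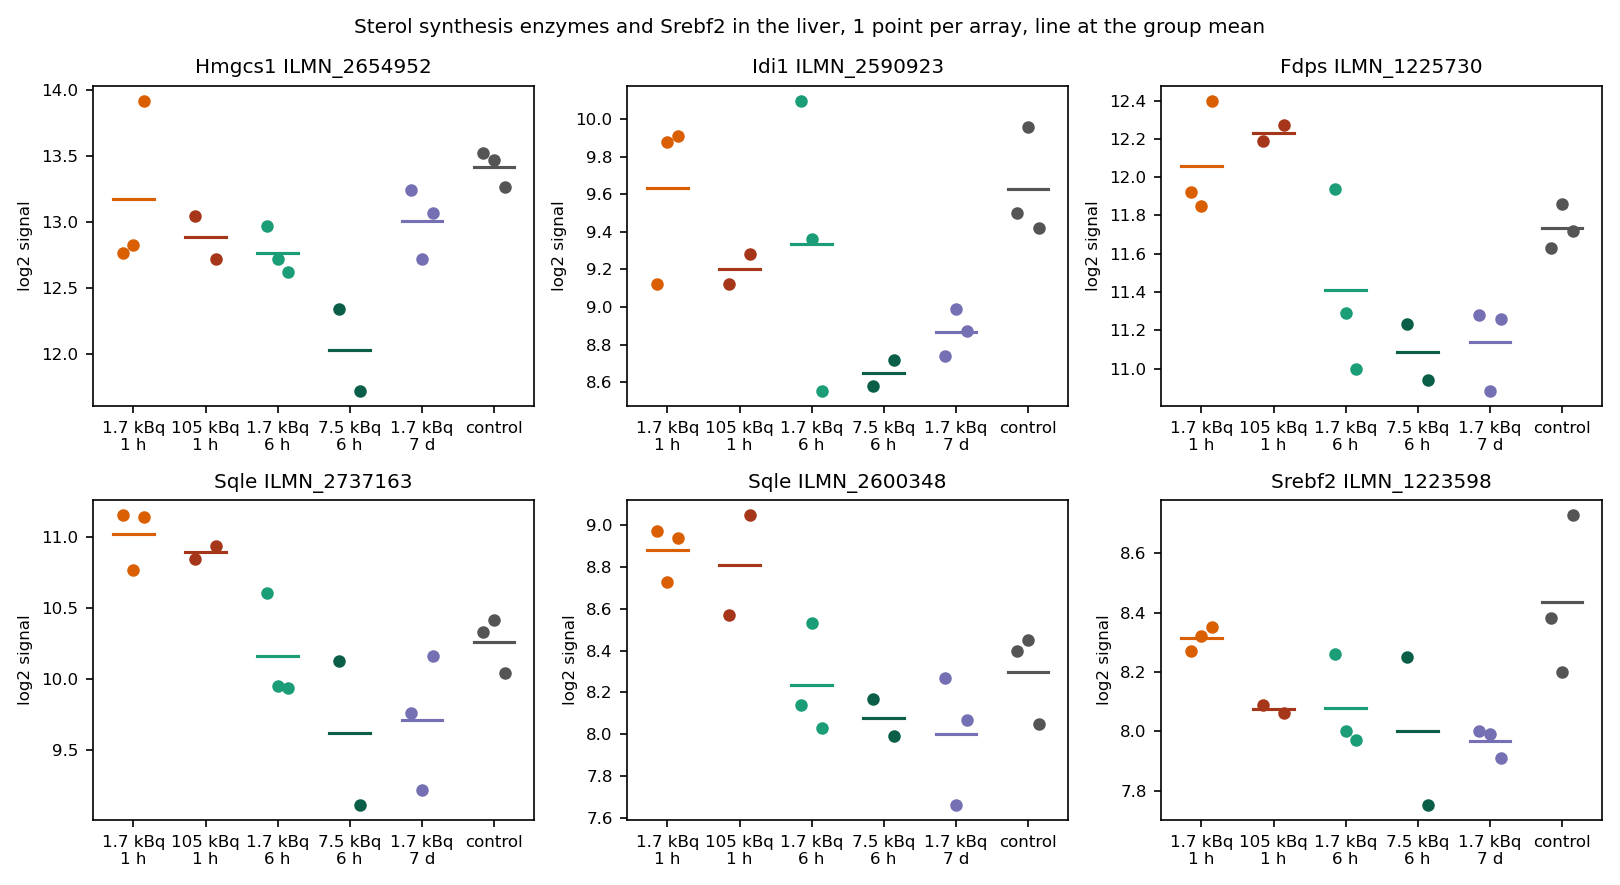
Log2 signal of Hmgcs1, Idi1, Fdps, both Sqle probes and Srebf2 on 16 liver arrays, with exposed groups on the x axis and control at the right, 1 point per array and a line at each group mean. The 1 h groups are highest for Sqle and Fdps, and the 7.5 kBq arrays are lowest for Hmgcs1, at 12.34 and 11.72 against 13.27 to 13.52 in control livers.

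The genes of the transcription factors themselves differed less in the liver. Srebf2 lay below control at 7 days, with 8.0, 7.99 and 7.91 against 8.38, 8.20 and 8.73 in control livers (-0.47, SE 0.13, adjusted p = 0.285), and the other groups differed by -0.12 to -0.43. Srebf1 ILMN_2792089 had no steady direction, with differences of -0.46 to 0.11 and SE of 0.33 to 0.37, and its 2 arrays at 105 kBq read 9.70 and 8.21. The array signal reports transcripts and not the cleavage that activates the SREBP proteins.

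In the kidney cortex, Srebf1 ILMN_2792089 gave the 2 member values outside the liver with an adjusted p under 0.05. It read 7.44, 7.37 and 7.29 at 1.7 kBq and 1 h, 7.26 and 7.08 at 105 kBq, 7.33, 7.15 and 7.22 at 1.7 kBq and 6 h, 7.01 and 7.04 at 7.5 kBq, and 7.13, 7.20 and 7.12 at 7 days, against 7.59, 7.6 and 7.44 in control cortex. Except for a near tie at 7.44, every exposed array lay below the control arrays. Every array of a group lay below the control arrays for 6.39% of kept cortex probes at 1.7 kBq and 1 h. This share was 16.3% at 105 kBq, 7.56% at 1.7 kBq and 6 h, 14.4% at 7.5 kBq and 4.96% at 7 days. The probe was picked by its adjusted p, and all groups share the same control arrays, so this is not separate evidence. The differences were -0.38 (adjusted p = 0.0439) at 105 kBq and -0.52 (adjusted p = 0.0123) at 7.5 kBq, under the 1.5-fold limit and close to background, where 0.888% and 0.361% of all kept cortex probes had an adjusted p under 0.05. Without the cortex arrays that carry another tissue, the adjusted p at 7.5 kBq became 0.146, with 1 array left in that group.

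The other cortex values stayed short of these. The shares of kept cortex probes called were 0.225% and 0.195% at 1 h, 0.0355% and 0.101% at 6 h and 0.00% at 7 days. Insig2 ILMN_1216822 read 9.60 and 9.17 at 7.5 kBq against 8.55, 8.69 and 8.90 in control cortex, a difference of 0.67 (adjusted p = 0.0597), and the array at 9.60 is the one with hepatocyte transcripts. Without it the difference was 0.46 (adjusted p = 0.569).

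In the kidney medulla at 7 days the library that goes against its label read 11.51 for Insig2 ILMN_1216822, where the other 2 arrays of its group read 9.02 and 9.01, and 12.28 for Fdps where they read 8.93 and 9.0. Its Idi1 signal was 10.80, where the others read 7.84 and 7.43. Without it, the 7-day differences from control were 0.02 (against 0.85 with it) for Insig2 ILMN_1216822, -0.04 (against 1.06) for Fdps and 0.05 (against 1.11) for Idi1. With all arrays, no medulla, lung or spleen value of a member had an adjusted p under 0.05. Of the kept probes, 0.0233% were called at 1.7 kBq and 1 h in the medulla and 0.00587% in the spleen, and 0.00% in their other groups. In the lungs 0.0732% were called at 1.7 kBq and 1 h, 0.0610% at 105 kBq, 0.0183% at 7.5 kBq and 0.00% in the other 2 groups. Without the library that goes against its label, 0.418% of kept medulla probes were called at 1.7 kBq and 1 h, 0.257% at 105 kBq, 0.0776% at 1.7 kBq and 6 h, 0.101% at 7.5 kBq and 0.00% at 7 days, none of them a member. Hmgcs1 at 1.7 kBq and 1 h then had an adjusted p of 0.0173 in the medulla (0.56, SE 0.11), under the 1.5-fold limit, where 3.96% of kept probes had an adjusted p under 0.05.

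Whether an effect differed between tissues was tested over all 80 arrays, as the liver effect minus the mean effect in the other 4 tissues and as an F test of any difference between the 5 effects. Tissues of 1 mouse are not independent, and the mouse is not given, so these p-values rest on arrays taken as independent. The fit takes 1 spread per probe over all tissues, while Hmgcs1 spread most in the liver (residual SD 0.36, elsewhere 0.15 to 0.28). At 7.5 kBq the SE of Insig1 ILMN_2606693 was 0.25 here and 0.29 for the liver difference alone. These p-values may therefore be too small. For Hmgcs1 at 7.5 kBq the liver effect minus the mean of the other tissues was -1.35 (SE 0.26, adjusted p = 0.00108), and the effects differed by the F test (adjusted p = 0.000314). Over all 21143 probes 0.251% were called lower in the liver in this way and 0.506% by the F test. Without the 5 arrays that carry another tissue, the liver effect minus that mean was -1.29 (SE 0.25, adjusted p = 0.000906).

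Hmgcs1 at 7.5 kBq read 13.33 and 13.07 in kidney cortex against 12.87, 12.80 and 12.85 in control cortex, and 13.45 and 13.22 in kidney medulla against 13.03, 12.93 and 12.66 in control medulla. In the lungs it read 12.31 and 12.08 against 11.90, 12.46 and 12.31 in control lungs. In the spleen it read 9.96 and 10.36 against 11.51, 10.99 and 10.85 in control spleen. The differences from control were -1.39 in liver, 0.36 in kidney cortex, 0.46 in kidney medulla, -0.03 in lungs and -0.96 in spleen (adjusted p = 0.779 in the spleen). Liver and spleen thus lay on the same side and both kidney parts on the other, and no test set the liver against the spleen alone. Of the liver pair, replicate 2 at 11.72 was the lower, and without it the liver effect minus the mean of the other tissues was -1.04, with an adjusted p of 0.109. At 105 kBq and 1 h, the F test of Hmgcs1 had an adjusted p of 0.023, with differences of -0.54 in liver, 0.44 in kidney cortex, 0.31 in kidney medulla, -0.69 in lungs and -0.91 in spleen.

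**Figure D5:**
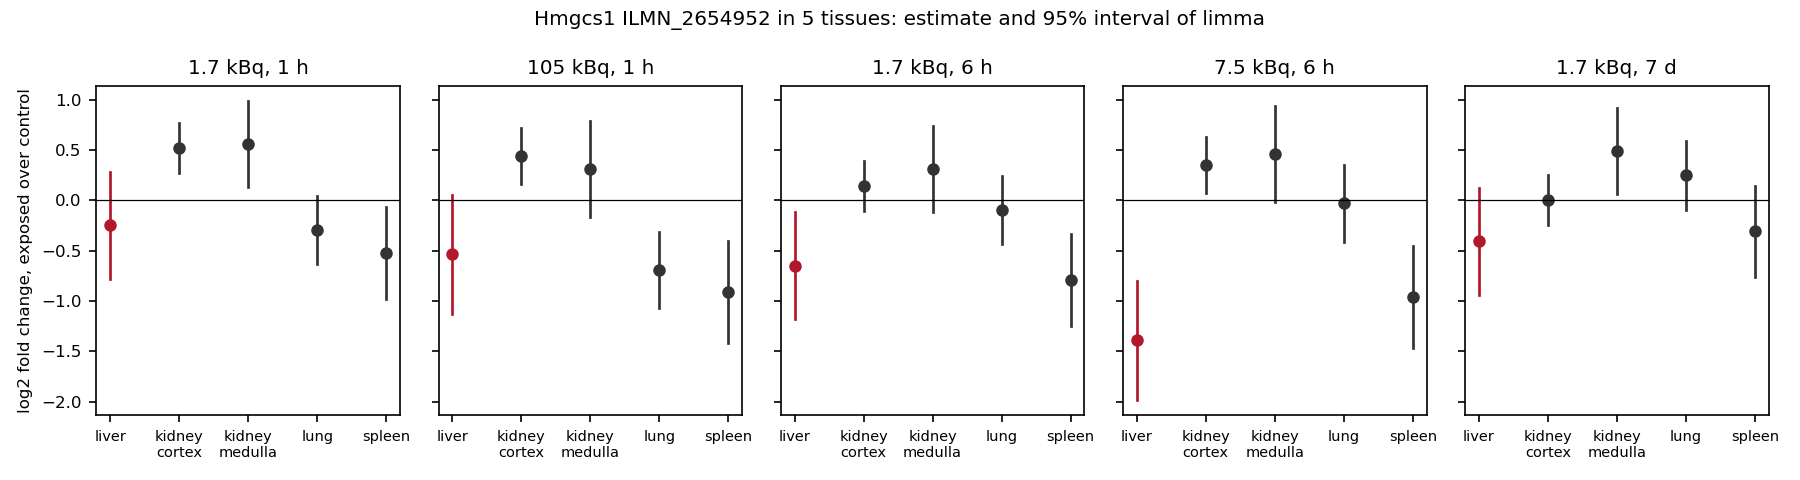
Difference of Hmgcs1 from control (log2, with the unadjusted 95% interval of limma) in 5 tissues after the 5 exposures. At 7.5 kBq and 6 h the liver lies at -1.39 and the spleen at -0.96, while both kidney parts lie above 0.

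Insig1 ILMN_2606693 was called in the same test at 7.5 kBq and is less readable, because it is near background outside the liver. Its liver effect minus that mean was -1.09 (SE 0.25, adjusted p = 0.00808), with an adjusted p of 0.0591 by the F test. The call was lost when either liver array of 7.5 kBq, or control replicate 2 or 3, was left out. Insig2 ILMN_1234858 was kept in the liver alone, so its contrast at 1.7 kBq and 6 h (-1.56) restates the liver difference and tests no difference between tissues. The shares called lower in the liver were 0.137%, 0.208%, 0.114%, 0.251% and 0.0142% over the exposures 1.7 kBq and 1 h, 105 kBq and 1 h, 1.7 kBq and 6 h, 7.5 kBq and 6 h, and 7 days. Leaving out the 5 arrays that carry another tissue was chosen after seeing the data. Insig2 ILMN_2690256, which is above background in every tissue, then had a liver effect minus that mean of -0.78 at 1.7 kBq and 6 h. Its adjusted p was 0.00109, where 0.279% of all probes were called lower, against 0.134 with all arrays (-0.77). The SE without the 5 arrays was 0.15, against 0.20 for the liver difference alone, so this p-value too may be too small. The Sqle probes had values of 0.77 (adjusted p = 0.00936) and 1.25 (adjusted p = 0.00866) at 1.7 kBq and 1 h, where 0.369% were called higher. None of the 5 arrays is from a 1 h or control group, so the Sqle values were the same with all arrays. With all arrays their adjusted p was 0.0248 and 0.0472, and neither Sqle probe was called.

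The rest of the pathway was taken from 3 lists of genes. Of 16 other enzymes of sterol synthesis 11 were measured, and the rest were not analysed here. In liver after 7.5 kBq, 10 of the 11 lay below control and 1 above, with a median of -0.75 against -0.0009 over all kept probes, of which 50.2% lay below control. At 7.5 kBq 1 of the 11 was called, Pmvk, the phosphomevalonate kinase, which fell by 1.16 (SE 0.17, adjusted p = 0.00137). Next to it, Mvd (-1.03), Lss (-0.84), Msmo1 (-1.02) and Sc5d (-1.09) had adjusted p of 0.0303 to 0.0471, and Hsd17b7 lay above control by 0.37 (adjusted p = 0.109). Of all kept liver probes, 1.15% were called in that comparison and 4.12% had an adjusted p under 0.05. The 8 members, each by its brightest kept probe, were all below control at 7.5 kBq (median -0.65) and at 7 days (median -0.47), 7 of 8 were at 1.7 kBq and 6 h (median -0.31), and 5 of 8 at 1 h after 1.7 kBq (-0.07) and 105 kBq (-0.28). The other enzymes were split at 1 h, with 5 of 11 below control at 1.7 kBq and 6 of 11 at 105 kBq, and 9 of 11 were below at 1.7 kBq and 6 h (median -0.41) and at 7 days (median -0.43).

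At 1 h the 2 calls of this list went in opposite directions, where 1.19% of all kept liver probes were called at 1.7 kBq and 0.997% at 105 kBq. Hsd17b7, which acts in both sterol and estrogen synthesis, rose by 0.59 at 1.7 kBq (SE 0.11, adjusted p = 0.00564), and Sc5d, the lathosterol oxidase, fell by 1.38 at 105 kBq (SE 0.26, adjusted p = 0.00923). The call of Hsd17b7 was lost when any 1 of its 6 arrays was left out except replicate 2 of 1.7 kBq, that of Sc5d when any 1 of its 5 arrays was left out and under 5 of the other settings (adjusted p of 0.0173 to 0.036), and that of Pmvk without either array of 7.5 kBq. Background subtraction (adjusted p = 0.0438), a replicate block (adjusted p = 0.0104) and a fit on the 2 groups alone (adjusted p = 0.032) also ended the call of Hsd17b7. Among SREBP processing and sterol uptake genes 8 of 12 were measured, and limma called none in the liver. At an adjusted p under 0.05, 1 of the 8 lay above control at 1.7 kBq and 1 h, 1 at 105 kBq and 1 at 7.5 kBq. None lay below control at that level, and 4.82%, 4.11% and 4.12% of all kept liver probes passed it in those groups. At 7.5 kBq, 6 of these 8 lay below control (median -0.10), and 4, 3, 4 and 4 did in the other groups in the order 1.7 kBq and 1 h, 105 kBq, 1.7 kBq and 6 h, 7 days. Of the LXR and cholesterol efflux genes 6 of 9 were measured and limma called none in the liver, with 6 of 6 below control at 1.7 kBq and 1 h (median -0.12) and 2 of 6 at 7.5 kBq (median 0.13).

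Patterns over the 16 liver arrays were compared among the 18554 kept probes, leaving out probes of the same gene and probes without a symbol, as a description, since all points share their arrays and their groups. Insig1 ILMN_2895388 ran most closely with Laptm4b (r = 0.89), Nit2 (0.88), Gm7609 (0.87), the member Idi1 (0.86) and Cpd (0.86). Among probes of other genes, Insig2 ILMN_1216822 ran most closely with Rbpms (0.78), Tbc1d15 (0.78), Mtdh (0.76), Cyp2b10 (0.74) and Pan2 (0.74). For Insig1 ILMN_2606693, added after its values were seen, the nearest other genes were Prkaca (0.89), Gadd45a (0.83), Mmab (0.83), Echdc3 (0.81) and Nab2 (0.80).

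Spread within groups differed between tissues. Over the 6 liver groups the residual SD was 0.36 for Hmgcs1, 0.38 for Insig1 ILMN_2606693 and 0.51 for Insig2 ILMN_1234858 (log2, 10 degrees of freedom). In the other tissues Hmgcs1 had residual SDs of 0.15 in kidney cortex, 0.26 in kidney medulla, 0.20 in lungs and 0.28 in spleen. With 2 or 3 mice in a group, the number of arrays limits the precision of every difference given here.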

How the data were processed

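RNA from 5 tissues was hybridised to Illumina MouseRef-8 BeadChips. The deposited values are intensities on a linear scale, which the authors quantile-normalised with Illumina software and BASE (versions not given in the sources used here) without subtraction of background; samples had passed an RNA quality limit. A second table, with 80 columns of unnormalised signal and 80 of detection p, was not used here because no label ties its columns to samples.

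Log2 of the intensity was fitted in R 4.3.3 with limma 3.58.1, 1 fit per tissue on 16 arrays with 6 group means, and tested on simulated data first. The background signal, 116.4, is the mode of all values (105.8) plus 2.33 times the SD under it (4.59). P-values were adjusted by Benjamini-Hochberg over 18554 kept probes in liver, 16889 in kidney cortex, 17168 in kidney medulla, 16386 in lungs and 17022 in spleen. Control tissues were compared on 15 arrays and effects between tissues on 80. Gene symbols were given for 23978 probes and not for 1719.

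Named were all member probes, genes of the other lists called in at least 1 exposed-against-control comparison, and the 5 probes most like an Insig gene in liver. Further genes that the rule names are not reported here. Enzymes beside the called Pmvk were named after their values were seen. Members and lists were chosen with earlier results of these data known. Positions and promoter sequences are from RefSeq tables of GRCm38.p6. Alternatives were other probe filters, background subtraction, an intensity trend with a robust prior, array weights, a replicate block, each pair of groups alone, and leaving out arrays.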

Additional observations from a re-analysis of the deposited data

Results flagged for a closer look

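Both of the following values stood out because the test of the difference between tissues passed its threshold, with the liver effect set against the mean effect in kidney cortex, kidney medulla, lungs and spleen. Hmgcs1 at 7.5 kBq and 6 h had a liver effect of -1.35 relative to the other tissues (SE 0.26, adjusted p = 0.00108), and lost the call without liver replicate 2 of 7.5 kBq. Insig1 ILMN_2606693 at 7.5 kBq and 6 h had one of -1.09 (SE 0.25, adjusted p = 0.00808), on a probe near background outside the liver. Both p-values rest on 1 spread per probe over all tissues and may be too small.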

How the results depend on the processing

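Direction was followed for member probes with an unadjusted p under 0.05 (limma) within a tissue, for the called Hsd17b7, Sc5d and Pmvk, and for calls between tissues. None of these changed its direction under any alternative. Fdps in the kidney medulla at 7 days was outside that check. As given above, its difference changed sign without the library that goes against its label. Counts of called member probes moved as follows. With an adjusted p under 0.05 and no fold limit, 3 were called instead of 0 in the liver at 1.7 kBq and 6 h (the Insig2 probes), 3 instead of 0 at 7.5 kBq and 6 h, 3 instead of 0 for 7 days against 1 h, 1 instead of 0 in the kidney cortex at 105 kBq and 1 at 7.5 kBq (both Srebf1), and, between control tissues, 3 instead of 0 for cortex against lungs, 10 instead of 5 for cortex against spleen and 5 instead of 2 for medulla against lungs. The share of all probes that passed this looser rule between control tissues is not given here. By the rule for a call, 21.6%, 26.8% and 21.7% of all probes passed in those 3 comparisons. These counts between control tissues are therefore not read as a result about the members. In the liver at 7.5 kBq, a stricter probe filter, array weights and a fit on the 2 groups alone each called 1, Hmgcs1. For liver 7 days against 1 h, an intensity trend with a robust prior called 1, array weights 3 and a replicate block 1, Sqle ILMN_2737163. Whether the replicate numbers pair the samples is not known. Same-numbered deviations had mean correlations of 0.05 in liver, -0.03 in kidney cortex, -0.04 in kidney medulla, 0.11 in lungs and 0.12 in spleen. Other-numbered deviations had means of -0.02, 0.01, 0.02, -0.06 and -0.06 in the same order. The replicate block moved no other count by over 1.5 times. Between control tissues, array weights called 1 for cortex against medulla and 1 for cortex against lungs, where background subtraction and the intensity trend called 2 each, background subtraction called 1 for medulla against lungs, and no probe filter called 3 for cortex against spleen.

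The 5 arrays that carry another tissue were left out only after the data had been seen. The liver effect against the other tissues was then called for 2 member probes at 1.7 kBq and 1 h (Sqle). It was called for 1 at 105 kBq (Insig1 ILMN_2620965, a dim probe), 2 at 1.7 kBq and 6 h (Insig2) and 4 at 7.5 kBq (Hmgcs1 and Insig1). With all arrays the counts were 0, 0, 1 and 2. The 1, Insig2 ILMN_1234858, is kept in the liver alone and is also among the 2 at 1.7 kBq and 6 h. Without the 5 arrays, 0.369% of all probes were called higher at 1.7 kBq and 1 h and 0.279% lower at 1.7 kBq and 6 h. The shares at 105 and 7.5 kBq are not given here, so those counts are not read as a result about the members. Leaving out 1 liver array at a time gave 0 to 1 such calls at 1.7 kBq and 1 h, 0 throughout at 1.7 kBq and 6 h, and 0 to 3 at 7.5 kBq, with 0 without replicate 2 of 7.5 kBq. For the exposed groups against control it gave 0 to 1 in the liver at 7.5 kBq (Insig1 ILMN_1245272 without control replicate 1) and 0 to 1 in the kidney cortex at 7.5 kBq (Insig2 ILMN_1216822 without replicate 2, which leaves the array with hepatocyte transcripts). For control tissues it gave 9 to 11 for liver against cortex, 10 to 11 for liver against medulla, 0 to 1 for cortex against lungs, 2 to 3 for cortex against spleen, 0 to 2 for medulla against lungs, 2 to 4 for medulla against spleen and 1 to 3 for lungs against spleen. A group left with 1 array was assumed to vary like the others. A filter on detection p was not run. With 2 or 3 arrays a group and background left in the signal, differences of dim probes such as Insig1 ILMN_2620965 are understated.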
